A study of Mus musculus with 2 samples.

Results

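The genes described here encode the machinery of mitosis: the kinases and cyclins that start it, the spindle checkpoint, the inner and outer kinetochore, the chromosomal passenger complex, condensin, the regulators and targets of the anaphase-promoting complex, and proteins of the spindle and of cytokinesis. They were chosen by name, as 47 genes of known function, with earlier results of these data known. All 47 were found among the 27790 genes or transcripts on the arrays. RNA of the dormant DMC-derived melanoma line B16F1-GFP-D was compared with RNA of its maternal line B16F1-GFP-M, where DMC stands for disseminated melanoma cell. Both are mouse B16F1 melanoma cells that express green fluorescent protein, and both were grown untreated in the same serum-containing medium. B16F1-GFP-D comes from 1 colony of fluorescent cells, which were isolated from pooled organs of control and immunised mice long after engraftment, so that it is a single clone. The study's methods give the host mice as female and immunocompetent, of the strain C57BL6JRj and young adult when engrafted. The RNAs were hybridised together on 2 two-colour Agilent arrays on 1 slide, array 1 with the maternal line in Cy5 and the dormant cell-derived line in Cy3, array 2 with the dyes exchanged. The labels name no separate cultures and do not say whether both arrays held the same RNA extracts. The arrays were therefore counted as 1 replicate per line, and the lines could not be tested against each other. Each standard deviation is that between the 2 arrays; it holds the effects of the dyes, and how far it holds variation from culture to culture is not known.

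On entry into mitosis, Cdk1 bound to cyclins A and B phosphorylates a great many proteins, and condensin folds the chromosomes. Kinetochores assemble on centromeric chromatin that carries the histone variant CENP-A. Kinetochores that are not yet attached to microtubules keep the spindle checkpoint active, which holds back Cdc20 and with it the anaphase-promoting complex (APC/C); once it is released, securin and cyclin B are degraded, separase opens cohesin and the cells divide. Most of these genes are transcribed in G2 and M phase, and their RNA is therefore commonly read as a sign of cycling cells. In RNA of whole cultures, a larger share of cells in G2 and M phase and more RNA per cell cannot be told apart. Neither can a property of the line and the state of its culture at the time of extraction. The study measured the cell cycle by flow cytometry and reports a larger G0/G1-arrested share for the dormant cell-derived line than for the maternal line. The cells of that measurement had been transfected with control siRNA or with siRNA against GILZ, the product of *Tsc22d3*. Whether that share also held in the cultures hybridised here was not tested. The study also reports more spheres and faster-growing tumours from the dormant cell-derived line than from the maternal line.

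Between 44.1% and 60.7% of the spots stood well above background in a given line and array, and none was saturated. A gene was read from its brightest probe and counted as detected when this probe stood well above background on both arrays for at least 1 of the lines, which held for 12540 genes. All 8 melanocyte markers examined were detected in both lines, with log2 ratios between -0.92 and 0.30, and none was past 2-fold on both arrays. Of 7 fibroblast, 6 leukocyte and 4 endothelial markers, 2, 2 and 0 were detected, and none was past 2-fold on both arrays.

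All 47 mitotic genes were detected, 46 of them in both lines, and all 47 had a higher signal in B16F1-GFP-D on each of the 2 arrays. By a rule of size that asked for a 2-fold difference on array 1 and again on array 2, with 1 sign, 25 of the 47 genes, or 53.2%, were called higher and 0 were called lower. The same rule called 3.09% of all detected genes higher. Ratios are given as the log2 of the signal of B16F1-GFP-D divided by that of B16F1-GFP-M. Their median was 1.19 over the 47 genes, with quartiles of 0.91 and 1.37, against -0.008 over all detected genes. Of all detected genes, 2.41% had a ratio at or above this median. The values of the 2 arrays lay close together, with a pooled standard deviation of 0.13 on the log2 scale for the 47 genes and of 0.15 for all detected genes, and the mean ratio exceeded the standard deviation in all 47 genes and was over 2 times as large in 46. Array 2 gave the larger ratio in 31 genes, with a median of 1.28 against 1.07 on array 1, so that 32 genes were past 2-fold on array 2 and 25 on array 1. The plot of the genes by complex shows that the ratios were uneven within most complexes.

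**Figure D1:**
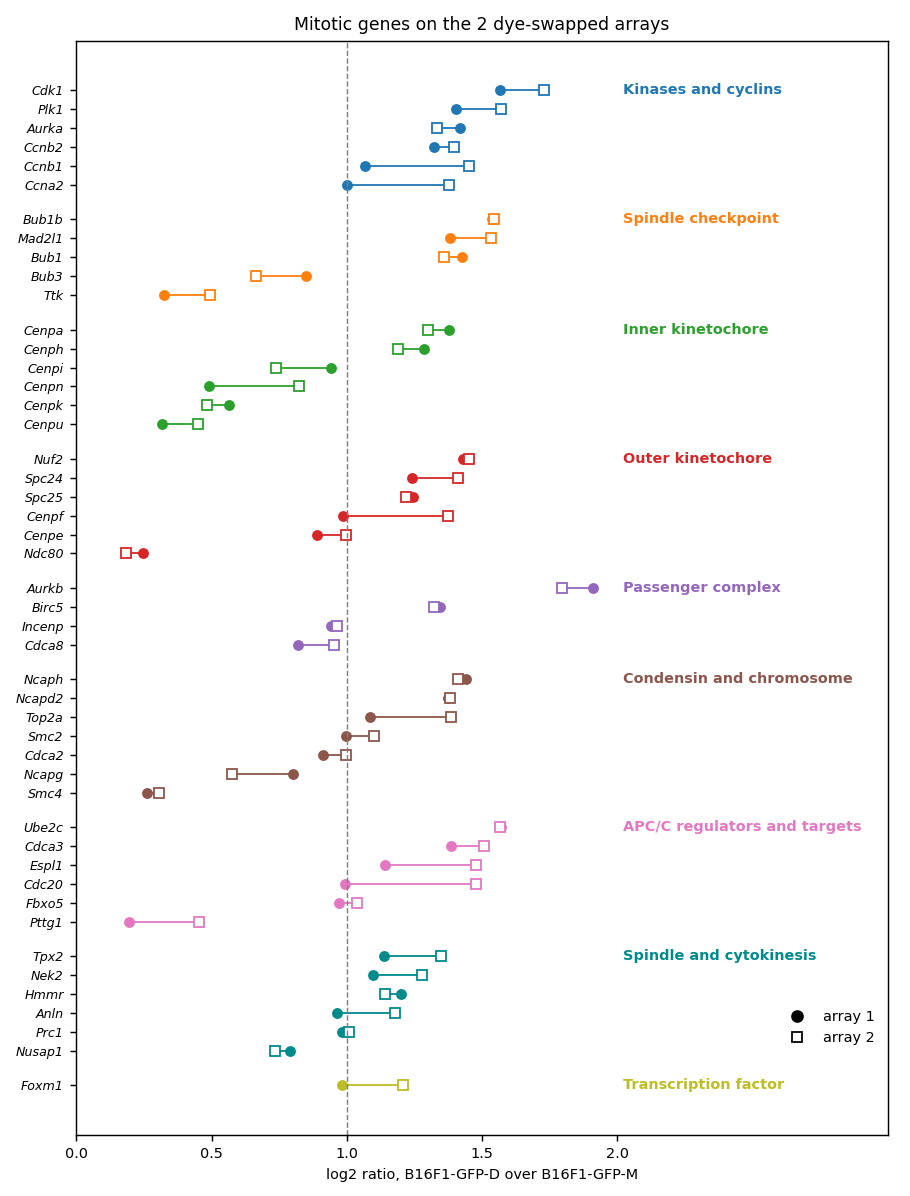
Log2 ratio, B16F1-GFP-D to B16F1-GFP-M (horizontal axis) for each of the 47 genes, ordered by complex; filled circles are array 1, open squares array 2, and the dashed line marks 2-fold. All points lie above 0, from *Ndc80* with a mean of 0.22 to *Aurkb* with 1.85, and the cyclins and kinases at the top all lie at or beyond the line on both arrays.

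Many promoters of these genes hold letters of known elements. The cell cycle homology region (CHR), with the letters TTTGAA or TTCGAA, and the CCAAT box, bound by NF-Y, are known elements of promoters active in G2 and M phase. The genes were chosen for known functions in mitosis, so that the shares below describe the list and are not independent support. RefSeq promoters of the assembly GRCm38.p6, from 250 bases before to 50 bases after a gene's start, were given for 39 of the 47 genes, as 43 windows. Both strands were searched. A CHR lay within 150 bases, from 100 before to 50 after the start, in 60.5% of the 43 windows, against 8.59% of all 32851 windows in the table. A CCAAT box lay anywhere in the 300-base window in 81.4%, against 37.4% of all windows, and 48.8% held at least 2 of them, against 11.7%. CHR and CCAAT together were present in 60.5% of the windows and in 7.52% of all windows. One of the E2F letters TTTCGCGC, TTTGGCGC, TTTCCCGC or TTTGCCGC was present in 6.98% against 2.26%. Over all windows of the 39 genes, 2 matches overlapped another one. A match is a description of these letters and not a site of binding.

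The sequences that follow are the 150 bases that end just before the start of 5 genes whose promoters hold the letters and of 2 that hold none, each from 5′ to 3′ on the strand of its gene with the coordinates of GRCm38.p6. Capitals mark CHR, CCAAT and E2F letters on either strand, so that CCAAT can also read ATTGG, and TTTGAA can read TTCAAA.
*Cdk1* chr10:69352913-69353062, minus strand: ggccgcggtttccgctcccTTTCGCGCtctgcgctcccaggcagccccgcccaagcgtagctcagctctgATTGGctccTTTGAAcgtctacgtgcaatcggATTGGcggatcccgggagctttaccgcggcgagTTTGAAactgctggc
*Top2a* chr11:99024190-99024339, minus strand: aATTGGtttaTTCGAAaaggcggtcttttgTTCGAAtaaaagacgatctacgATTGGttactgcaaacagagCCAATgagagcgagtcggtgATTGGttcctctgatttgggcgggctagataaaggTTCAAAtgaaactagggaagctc
*Ube2c* chr2:164769779-164769928, plus strand: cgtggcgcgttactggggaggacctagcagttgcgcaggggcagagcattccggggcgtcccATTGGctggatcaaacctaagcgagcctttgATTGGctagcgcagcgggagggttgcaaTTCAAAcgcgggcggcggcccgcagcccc
*Cdc20* chr4:118437344-118437493, minus strand: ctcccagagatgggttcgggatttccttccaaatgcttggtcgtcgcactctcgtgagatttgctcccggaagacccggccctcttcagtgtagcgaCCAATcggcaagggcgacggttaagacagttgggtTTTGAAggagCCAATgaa
*Espl1* chr15:102296143-102296292, plus strand: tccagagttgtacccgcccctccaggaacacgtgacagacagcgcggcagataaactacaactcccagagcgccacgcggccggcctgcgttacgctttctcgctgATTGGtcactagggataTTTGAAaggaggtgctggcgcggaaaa
*Mad2l1* chr6:66535071-66535220, plus strand: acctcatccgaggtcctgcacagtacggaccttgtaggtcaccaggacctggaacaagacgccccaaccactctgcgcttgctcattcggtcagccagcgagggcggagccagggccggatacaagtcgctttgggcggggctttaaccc
*Pttg1* chr11:43425982-43426131, minus strand: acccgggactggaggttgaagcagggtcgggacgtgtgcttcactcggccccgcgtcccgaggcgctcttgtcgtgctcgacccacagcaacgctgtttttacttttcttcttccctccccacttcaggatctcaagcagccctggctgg

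The promoter of *Cdk1* holds the letters TTTGAA at 71 and 15 bases before the start (positions -71 and -15, with -1 the last base before the start) and CCAAT boxes at positions -80 and -48, or 32 bases apart; the E2F letters lie at -131. In *Ube2c*, the 2 boxes nearest to the start are 31 bases apart at -88 and -57, with a CHR at -29. *Top2a* has 3 CHR and 4 CCAAT matches in the stretch shown, *Cdc20* has a CHR at -18 between 2 boxes, and *Espl1* has 1 of each. No match lies in the windows of *Mad2l1* and *Pttg1*. Genes with and without these letters had ratios of similar size. The 25 genes with a CHR within the 150 bases around the start had a median log2 ratio of 1.23, and 13 were called higher, against 1.21 and 8 of the 14 genes without one. With a CCAAT box, 17 of 31 genes were called higher, and without one 4 of 8. *Mad2l1*, with none of the letters, had a ratio of 1.46, and *Pttg1*, also with none, of 0.33.

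All 6 kinases and cyclins that drive entry into mitosis were called higher, the only group of which every member was, and their median log2 ratio was 1.37. Not every alternative kept all 6 calls. Without background subtraction *Ccna2* and *Ccnb1* were not called. With the median of its probes, 1 of which was not detected, *Cdk1* had 0.91 and was not called. *Cdk1*, the kinase at the centre of mitotic entry, had normalized log2 intensities of 10.73 and 10.90 in B16F1-GFP-D on arrays 1 and 2, and of 9.16 and 9.17 in B16F1-GFP-M. The 2 values of B16F1-GFP-D were both above those of B16F1-GFP-M, with log2 ratios of 1.57 and 1.73, or 3.13-fold in the mean. Its probe lies on chromosome 10 at 68805423 to 68807832 of mm9, the build of the array design. *Plk1*, which promotes centrosome maturation and mitotic entry, had ratios of 1.41 and 1.57, or 2.81-fold. *Aurka*, the Aurora kinase of the spindle poles, had 1.42 and 1.33, or 2.59-fold. Among the cyclins, *Ccnb2* gave nearly the same value on both arrays, 1.32 and 1.40. *Ccnb1* had 1.07 and 1.45, and *Ccna2* had 1.00 and 1.38, which put *Ccna2* just at the 2-fold limit on array 1. A second probe of *Ccnb1* gave 1.65 and 1.87, past 2-fold on each array, and the remaining one 0.995 and 1.61, so that the size of its difference varied between probes and its direction did not.

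Of the 5 genes of the spindle checkpoint, 3 were called higher, with a median of 1.39. *Bub1b*, whose product BubR1 is part of the complex that inhibits Cdc20, had normalized log2 intensities of 9.58 and 9.64 in B16F1-GFP-D and of 8.04 and 8.10 in B16F1-GFP-M. This gave a ratio of 1.54 on each array, with a standard deviation of 0.005. *Mad2l1*, which encodes the Mad2 protein of the same complex, had 1.38 and 1.53, and the kinase *Bub1* had 1.43 and 1.36. The second probe of *Bub1*, which was dimmer, read 0.20 and 0.48 and was not past 2-fold. *Bub3*, the partner that brings Bub1 and BubR1 to the kinetochore, had 0.85 and 0.66 and was not called. The difference between *Bub1b* and *Bub3* was 0.69 on array 1 and 0.88 on array 2. *Ttk*, the kinase Mps1 that starts checkpoint signalling, was the dimmest of the 47 genes and was well above background in B16F1-GFP-M on 1 of the 2 arrays, with log2 ratios of 0.33 and 0.50. Its value depended on the background correction, and ranged from 0.29 with none to 1.90 with the scanner software's own log ratio.

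The inner kinetochore had the lowest median of the groups, 0.75, and 2 of 6 genes were called higher. *Cenpa*, the histone variant that marks centromeres, had log2 ratios of 1.38 and 1.30, or 2.53-fold, and *Cenph* had 1.28 and 1.19, or 2.36-fold. The 4 other genes belong with *Cenph* to the network of proteins built on CENP-A, and none of them reached 2-fold on either array. *Cenpi* had 0.94 and 0.74, *Cenpn*, which contacts CENP-A itself, 0.49 and 0.82, *Cenpk* 0.57 and 0.48, and *Cenpu* 0.32 and 0.45. *Cenph* and *Cenpk*, which encode partners in 1 subcomplex, differed by 0.72 and 0.71 on the 2 arrays. With the median of the probes of each gene the gap was smaller, with 0.68 for *Cenph* and 0.49 for *Cenpk*. That median includes, for each of these genes, a probe that was not detected. The same held for *Cenpa*, which had 0.65 with the median of its probes and was then not called. *Cenpi* and *Cenpu* were, with *Ttk*, the 3 genes of the list with the dimmest probes, for which the offset in the background correction draws ratios towards 0, and the median of the group ranged from 0.59 to 1.05 over the alternatives. *Cenpi* was called higher with an offset of 0, at 1.38, and with the scanner software's log ratio, at 1.49.

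In the outer kinetochore, which binds the microtubules, 3 of 6 genes were called higher and the genes of a single complex were split. The Ndc80 complex consists of the products of *Ndc80*, *Nuf2*, *Spc24* and *Spc25*. *Nuf2* had log2 ratios of 1.43 and 1.45, *Spc24* 1.24 and 1.41, and *Spc25* 1.24 and 1.22, between 2.35-fold and 2.71-fold in the mean. *Ndc80*, which gave the complex its name, had the smallest ratio of the 47 genes, with 0.25 and 0.19, or 1.16-fold. Its normalized log2 intensities were 8.81 and 8.55 in B16F1-GFP-D against 8.56 and 8.37 in B16F1-GFP-M. Array 2 of B16F1-GFP-D thus lay just below array 1 of B16F1-GFP-M, but the arrays were not scaled to each other. Within each array B16F1-GFP-D was higher. The ratio of *Nuf2* exceeded that of *Ndc80* by 1.18 on array 1 and by 1.27 on array 2, and those of *Spc24* and *Spc25* did so by 0.99 to 1.23. With the median of its probes, 1 of which was not detected, *Nuf2* had 0.77. *Ndc80* has 1 probe, on chromosome 17 at 71860793 to 71861755 of mm9, well above background in both lines, and its ratio stayed between 0.18 and 0.25 in all alternatives. The motor *Cenpe*, which moves chromosomes to the spindle equator, had 0.89 and 0.997, and *Cenpf* had 0.985 and 1.38 and missed the 2-fold limit on array 1 alone.

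The chromosomal passenger complex corrects wrong attachments and later guides cytokinesis. Its kinase *Aurkb* had the largest ratio of the 47 genes. The normalized log2 intensities were 9.22 and 9.57 in B16F1-GFP-D and 7.31 and 7.78 in B16F1-GFP-M, on arrays not scaled to each other. The log2 ratios of 1.91 and 1.79 gave 3.61-fold in the mean. It was the only one of the 47 genes past 3-fold on both arrays; its single probe lies on chromosome 11 at 68865037 to 68865096 of mm9. *Birc5*, which encodes survivin and was the brightest of the 47, had 1.34 and 1.32, or 2.52-fold. The scaffold *Incenp*, with 0.94 and 0.96, and *Cdca8*, which encodes borealin, with 0.82 and 0.95, stayed below 2-fold on both arrays. The ratio of *Aurkb* exceeded that of *Cdca8* by 1.09 and 0.84 on the 2 arrays.

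Of the 7 genes for condensin and chromosome structure, 3 were called higher, with a median of 1.05. Condensin I is built from the products of *Smc2*, *Smc4*, *Ncapd2*, *Ncapg* and *Ncaph*. *Ncaph* had log2 ratios of 1.44 and 1.41, and *Ncapd2* had 1.38 and 1.38, with both other probes of *Ncapd2* also called, at means of 1.55 and 1.28. *Smc2* had 0.998 and 1.10, or 2.07-fold in the mean, and missed the limit on array 1 by less than its standard deviation of 0.07; its second-brightest probe passed it, with 1.08 and 1.01, and the other probes did not, with means of 0.83 and 0.27. *Ncapg* had 0.80 and 0.58. *Smc4*, the partner of Smc2 in the core of the complex, had 0.26 and 0.30, or 1.22-fold, and its second probe had 0.12 and 0.36. The ratio of *Smc2* exceeded that of *Smc4* by 0.74 and 0.80. *Top2a*, the topoisomerase that untangles sister chromatids, had 1.09 and 1.39, or 2.35-fold, while a second probe had 1.05 and 0.993 and so missed the limit on array 2. *Cdca2*, a subunit that targets protein phosphatase 1 to chromatin, had 0.91 and 0.998, and its other 3 probes gave means of 1.21, 0.36 and 0.34.

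Among regulators and targets of the APC/C, 3 of 6 genes were called higher, with a median of 1.27. *Ube2c*, the enzyme that delivers ubiquitin to the APC/C, had log2 ratios of 1.570 and 1.567, with the smallest standard deviation of the 47 genes, 0.002, and a 2.97-fold difference. *Cdca3*, which promotes mitotic entry through degradation of Wee1, had 1.39 and 1.51, and its second probe gave the same mean of 1.45. *Espl1*, the protease separase, had 1.14 and 1.48. With the median of its probes, which includes a probe that was not detected, *Espl1* had 0.59 and was not called. Its inhibitor securin, encoded by *Pttg1*, had 0.20 and 0.45, or 1.25-fold, with intensities of 12.26 and 12.10 in B16F1-GFP-D against 12.07 and 11.65 in B16F1-GFP-M, so that the ratio of the protease exceeded that of its inhibitor by 0.94 and 1.02. The activator *Cdc20* had 0.995 and 1.48, the widest gap between the arrays among the 47 genes, with a standard deviation of 0.34, and was past 2-fold in the mean but not on array 1. *Fbxo5*, which encodes the APC/C inhibitor Emi1, had 0.97 and 1.04.

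Of 6 genes for the spindle and cytokinesis, 3 were called higher, with a median of 1.12 and the narrowest spread between members after the kinases and cyclins, from 0.76 to 1.24. *Tpx2*, the activator of Aurora A on the spindle, had log2 ratios of 1.14 and 1.35, *Nek2*, a centrosomal kinase, 1.10 and 1.28, and *Hmmr*, a microtubule-binding protein also known as a hyaluronan receptor, 1.20 and 1.14. *Prc1*, which bundles the microtubules of the midzone, had 0.98 and 1.01. *Anln*, the anillin of the contractile ring, had 0.96 and 1.18, and its second probe was called, with 1.19 and 1.18. *Nusap1* had 0.79 and 0.73. *Foxm1*, a transcription factor of G2 and M phase genes, had 0.98 and 1.21, or 2.14-fold in the mean, and missed the limit on array 1 only. With the median of its probes, which includes a probe that was not detected, *Foxm1* had 0.52.

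The 2-fold rule divided a continuous series of values. Of the 22 genes not called, 7 were past 2-fold on array 2 and not on array 1, and 15 on neither array; 6 had a mean ratio above 2-fold. Just inside the rule lay *Ccna2*, whose lower array had 1.002, and just outside lay *Smc2* with 0.998, *Cdc20* with 0.995, *Cenpf* with 0.985 and *Foxm1* with 0.984, differences smaller than the spread between arrays. Other genes lay far from the limit, on either side of it. The largest mean log2 ratios were 1.85 for *Aurkb*, 1.65 for *Cdk1*, 1.57 for *Ube2c* and 1.54 for *Bub1b*. Among the 46 genes measured in both lines, *Cenpu*, *Pttg1*, *Smc4* and *Ndc80* had a mean below 0.5 on the log2 scale, while *Ttk*, near background in B16F1-GFP-M, has no firm place in this order. They belong to different groups and are not all dim, since *Pttg1* and *Smc4* were brighter than most detected genes, with mean log2 intensities of 12.02 and 11.06. The dim *Cenpu* reached 0.65 with the scanner software's log ratio.

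**Figure D2:**
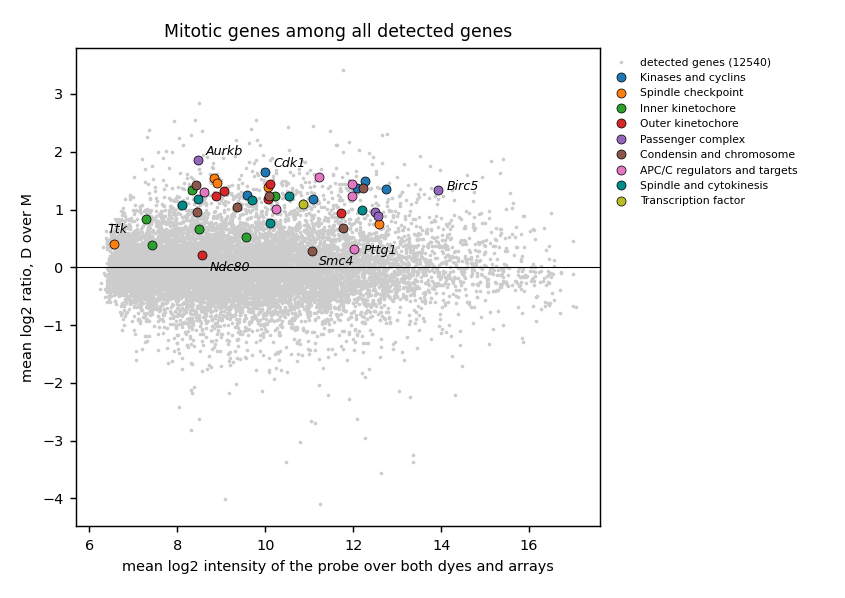
Mean log2 ratio, B16F1-GFP-D to B16F1-GFP-M (vertical axis) against the mean log2 intensity of the probe (horizontal axis) for all 12540 detected genes in grey and the 47 mitotic genes in colour by complex. The mitotic genes lie in the upper part of the cloud at all intensities, from 6.57 for *Ttk* to 13.92 for *Birc5*, and *Pttg1* and *Smc4* are low although bright.

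Brightness did not order the ratios within the list. Across the 47 genes, which are not independent replicates, the Pearson correlation of the log2 ratio with intensity was 0.12 and the Spearman correlation 0.08, as a description. The 47 genes were somewhat brighter than detected genes in general, with a median log2 intensity of 10.07 against 9.14. With the detected genes divided by intensity into 4 parts of 3135 each, 4.40% of the genes in the brightest part were called higher, and 8 of the 18 mitotic genes there. The shares were 3.86% and 8 of 13 in the next part, 3.13% and 9 of 13 in the one after, and 0.957% and 0 of 3 in the dimmest.

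More than 1 probe was present for 25 of the 47 genes, and 22 rest on a single probe. Among all 37 further probes the median ratio was 0.499; 32 of them read higher in B16F1-GFP-D on each array, and 9 were called higher. Of these probes, 22 were well above background in both lines, 4 in 1 line only and 11 were not detected. In 29 of the 37 the ratio was smaller than that of the brightest probe of the gene, as the plot of all probes shows. The 11 probes not detected lay near background in both lines and gave means from -0.13 for *Espl1* to 0.28 for *Cenpk*. They include the second probes of *Cdk1*, *Cenpa*, *Cenph*, *Nuf2* and *Espl1*, which were called through their brightest probe.

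**Figure D3:**
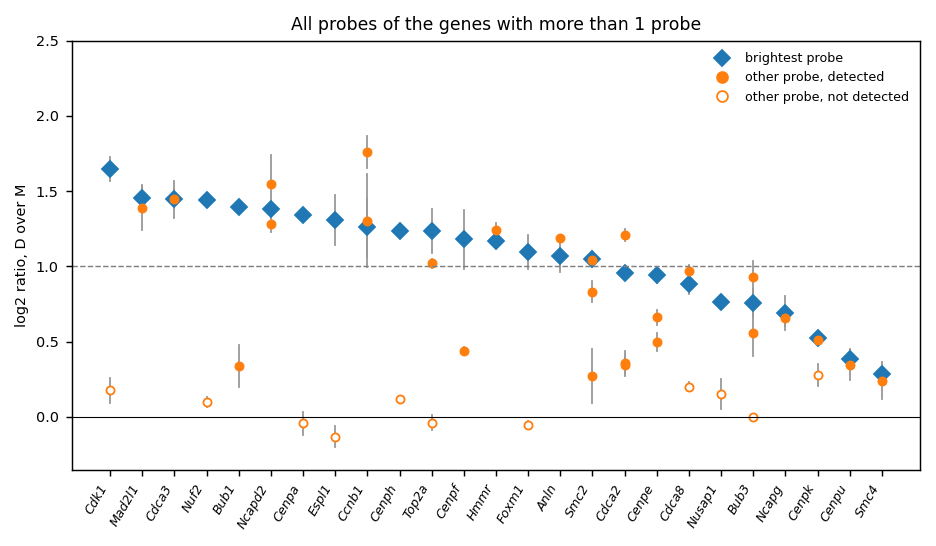
Log2 ratio, B16F1-GFP-D to B16F1-GFP-M (vertical axis) for every probe of the 25 genes with more than 1 probe; grey lines span the 2 arrays, blue diamonds are the brightest probes, filled orange circles other detected probes, open circles probes not detected, and the dashed line marks 2-fold. All filled symbols lie above 0, while *Bub1*, *Cenpf*, *Cdca2*, *Smc2* and *Ccnb1* have detected probes that differ from the brightest by more than 0.5.

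Genes of neighbouring machinery were read in the same way. Of 30 further kinetochore and centromere genes, 29 were detected, all with a mean above 0, and 4 were called higher. This count was 12 when the scanner software's ratios were used, 10 with an offset of 0, 6 and 7 on arrays 1 and 2 alone, 2 when each gene took the median of its probes, 1 without background subtraction and 0 with median centring. Their median of 0.84 was between those of the inner and the outer kinetochore genes above, with values from 0.15 for *Itgb3bp*, a protein of the inner kinetochore, to 1.11 for *Zwilch*, of the complex that recruits dynein and the checkpoint proteins. The 3 subunits particular to condensin II had a median of 0.70 and none was called, with 0.61 for *Ncapd3* and 1.06 for *Ncapg2*. Of 8 detected regulators of mitotic entry, 1 was called, the phosphatase *Cdc25c* with 1.16, and the lowest was *Ensa*, an inhibitor of phosphatase 2A, with -0.67; the median was 0.63.

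The next lists had medians nearer to 0. The 16 core subunits and activators of the APC/C had a median of 0.17, and 0 were called higher and 1 lower, *Anapc16* with -1.41; the highest, *Anapc15*, had 0.75. The 13 genes for cohesin and its loading had a median of -0.045, which varied around 0 between -0.073 and 0.058 over the alternatives, and 6 were above and 7 below 0 on both arrays. Only *Cdca5*, which encodes the cohesin protector sororin, was called higher, with 1.16, and *Nipbl*, the cohesin loader, was lowest with -0.45. Of 13 detected genes of the DREAM and MuvB complexes and NF-Y, which bind CHR and CCAAT promoters, 2 were called higher, with a median of 0.29. *Mybl2*, the activating B-Myb subunit, had 1.23, and *Nfyb*, a subunit of NF-Y, had -0.64.

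Genes for DNA replication act before mitosis. All 20 examined were detected and higher on both arrays, 16 were called higher, and the median was 1.38, from 0.39 for *Gins3* to 2.17 for *Mcm3*, a subunit of the replicative helicase. *Mki67*, the common marker of proliferating cells, had 1.49 and 1.26. No test compared these lists with the mitotic genes, since there is 1 replicate per line.

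**Figure D4:**
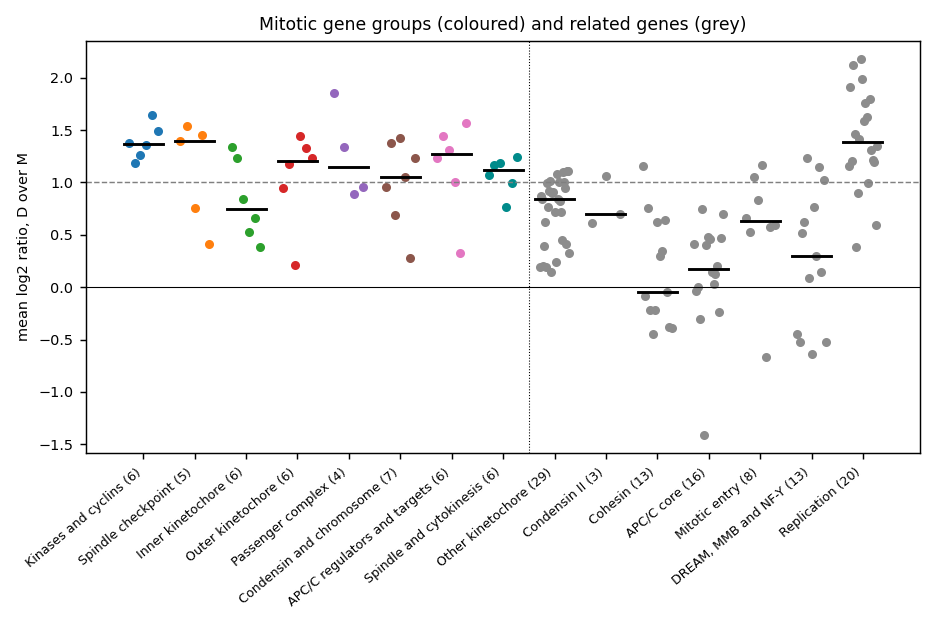
Mean log2 ratio, B16F1-GFP-D to B16F1-GFP-M (vertical axis) for each detected gene of the mitotic groups (coloured, left of the dotted line; *Foxm1* is not drawn) and of related lists (grey), with the number of genes in brackets; black bars are medians, and the dashed line marks 2-fold. Group medians run from 0.75 for the inner kinetochore to 1.39 for the spindle checkpoint, while the APC/C core (0.17) and cohesin (-0.045) lie near 0 and replication at 1.38.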

How the data were processed

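The arrays were scanned by the authors, and Agilent Feature Extraction 10.7.3.1, as the submitters' processing notes name it, measured the mean intensity and the median local background of each spot; these deposited intensities carry no normalization. The deposited log ratio is log10 of Cy5 over Cy3 after the software's own background subtraction and dye normalization. The series value table deposited by the authors holds these log10 ratios of Cy5 over Cy3 in rounded form, within 0.005 of the values in the software's files for detected genes. The threshold of the study for its arrays is not given in the sources used here, and no deposited p-value was used.

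From the intensities, limma 3.58.1 in R 4.3.3 corrected the background by normexp (offset 50), and loess was then run on each array by itself, without scaling the arrays to each other; the offset shrinks the ratios of dim spots. Control spots had weight 0, and outlier spots, 143 and 176 on the 2 arrays, were left out. All ratios were expressed as log2 of the dormant cell-derived line over the maternal line, and spots of a probe were averaged. Of 41164 probes, 27192 were named through their RefSeq accession with a table of GRCm38.p6, used for names only; the older symbol Cdc2a was read as *Cdk1*. Further steps used pandas 2.3.3, numpy 2.4.6 and matplotlib 3.10.9 in Python 3.11.15. Each gene was represented by its brightest probe. A median over a list took its detected genes. The intensity levels of a line are the mean log2 intensity of the spot shifted towards each line by an equal part of its log2 ratio.

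The mitotic genes, the related lists, the markers and the promoter letters were chosen with earlier results of these data known. All members are named; of each related list, the highest and the lowest detected gene. The 2-fold rule is one of size and not a test. The precision is limited by the number of arrays. The alternatives were other background corrections and scalings, the software's log ratio, the median over probes, stricter and looser filters on dim spots, single arrays, other thresholds and the series value table.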

Additional observations from a re-analysis of the deposited data

How the results depend on the processing

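In every alternative, no mitotic gene had a ratio below 0 in the mean of the arrays, or on the array used. Signs on each array by itself are given for the main processing only. The count called higher was 34 with the log ratios of the scanner software, read from its files or from the series value table, 33 with a normexp offset of 0, 32 on array 2 alone, 31 with 2-fold required of the mean only, 25 on array 1 alone, 22 without background subtraction and 19 when each gene took the median of its probes. The matching counts over all genes were 759 and 758 (6.05% and 6.04%) with the software's values, 635 (5.06%) with an offset of 0 and, for the other settings in the order given, 517 (3.40%), 473 (3.77%), 475 (2.85%), 310 (2.47%) and 307 (2.45%). With median centring in place of loess, 1 mitotic gene and 45 genes in all were called, since the medians of the detected genes were then -0.86 on array 1 and 1.02 on array 2; the median of the mitotic genes was 1.28. At 1.5-fold, 39 mitotic genes and 1100 genes in all were called higher, or 8.77%, and at 3-fold 1 and 74, or 0.59%. The median of the mitotic genes was 0.953 when each gene took the median of its probes, the lowest value, and 1.30 with the software's log ratio, the highest.

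At 2-fold and apart from median centring, 15 of the mitotic genes were called in every setting tried and 12 in none. Aquantile scaling and the filters on dim probes left the ratios of the mitotic genes as they were, and the series value table repeats the software's ratios, so that these settings add little to that count. The 12 include *Ndc80*, *Smc4* and *Pttg1*. The ratios of *Ndc80* and *Pttg1* ranged from 0.18 to 0.25 and from 0.20 to 0.53. *Ndc80* was the lowest of the 47 genes except on array 1 alone, where *Pttg1* was. Apart from median centring, 0 to 2 genes were called higher among regulators of mitotic entry and cohesin, 1 to 3 among DREAM, MuvB and NF-Y genes and 14 to 18 among replication genes. No paired analysis was possible because there is only 1 replicate of each line. Whether the 2 arrays hold separate extracts is not known, so that variation between cultures cannot be given, and dim spots limit ratios near background, as for *Ttk*.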
